A study of Mus musculus with 6 samples.

Results

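The genes described here carry new secretory proteins into the endoplasmic reticulum (ER) and on to the Golgi. They are 46 of the 23859 named genes on the array, in 9 role groups, chosen by name: 21 act at entry into the ER and 25 in traffic between the ER and the Golgi. Every probe named after one of them was taken, which gave 71 of the 55681 probes on the array, and all 46 genes had at least 1 probe. A gene was represented by its brightest unsaturated probe, and 44 of the 46 genes were among the 14033 genes tested because in some genotype both arrays read well above background. Of these 44, 42 were above background on all 6 arrays, and Copg1 and Srprb on all but Spink3-/- replicate 2.

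RNA of whole pancreas from newborn C57BL/6N mice, collected at postnatal day 0.5, was hybridised to single-colour Agilent arrays, 1 array per sample. The 3 genotypes, with 2 arrays each, were Spink3-/-, Spink3-/-XKI/+ and the wild type Spink3+/+. The Spink3 protein inhibits trypsin and leaves the acinar cell together with the digestive enzymes. By the study's design all acinar cells of the Spink3-/- pancreas undergo a death that is not apoptosis and involves autophagy, in Spink3-/-XKI/+ part of them stay normal, and Spink3+/+ is the control. The labels do not say what XKI stands for, so nothing is stated here of the promoter or cells that carry it. Nor do they say that the arrays of a genotype came from separate animals, so the p-values rest on a spread between samples that may be technical. In whole tissue, fewer cells of a type and less RNA per cell cannot be told apart.

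As background, a ribosome that begins a secretory protein is caught by the signal recognition particle, docked at its receptor on the ER and joined to the Sec61 channel, through which the chain enters. The translocon-associated protein complex sits beside the channel, and signal peptidase cuts off the signal sequence. Folded cargo leaves in vesicles with a COPII coat, some of it held by cargo receptors, while COPI vesicles and the KDEL receptors bring escaped ER proteins back from the Golgi. Acinar cells depend on this route more than most cells, since nearly all they make is exported enzyme, and the transcription factor XBP1 is known to maintain many of these genes in secretory cells.

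Levels are log2 of the processed signal minus the array's 75th percentile, so 0 is that percentile and a difference of 1 is a doubling. Spink3 itself stood at 3.25 and 2.95 on the Spink3-/- arrays and at 2.64 and 2.33 on the Spink3-/-XKI/+ arrays, against 9.84 and 10.26 on the Spink3+/+ arrays, so the labels hold for the targeted gene. On each array 42.4% to 50.8% of probes read well above background and 0 were saturated, and the 6 arrays correlated at 0.970 to 0.984. The tissue label also holds: all 23 measured digestive enzyme genes were above background on every array. The arrays shared 1 slide in 2 rows: Spink3-/- replicate 1 and both Spink3+/+ arrays in row 1, Spink3-/- replicate 2 and both Spink3-/-XKI/+ arrays in row 2.

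None of the 44 tested members passed the test in any comparison (limma, adjusted p under 0.05 over all 14033 genes). The share of all genes called was 0.0356% in Spink3-/- against Spink3+/+, 0.00713% in Spink3-/-XKI/+ against Spink3+/+ and 0.00713% in Spink3-/- against Spink3-/-XKI/+. At an unadjusted p under 0.05, 2 members, Sec61g and Copg1, were counted in Spink3-/- against Spink3+/+ (5.02% of all genes), 1 member, Copg1, in Spink3-/-XKI/+ against Spink3+/+ (7.6%) and 0 in Spink3-/- against Spink3-/-XKI/+ (7.22%). The lowest adjusted p of any member was 0.748, 0.475 and 0.690 in these comparisons. The median standard error of a member's difference was 0.20, and the 95% interval reached 0.48 to either side, or 1.39-fold. For 39, 34 and 38 members in that order the whole interval lay within a doubling or halving.

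Measured differences were small, below 0.5 in size for 43, 40 and 43 of the 44 members in the same order. In Spink3-/- against Spink3+/+, 22 of 44 members were higher (49.2% of all genes were), with a median difference of -0.0059 beside -0.0048 over all genes; with spike-in scaling 32 were higher, at a median of 0.11 for members and for all genes alike. That scaling moved every difference upward, by 0.11, 0.05 and 0.06 in the 3 comparisons. Negative values closer to 0 than that change sign under it, and positive values do not. In Spink3-/-XKI/+ against Spink3+/+, 12 were higher and 32 lower (56.2% of all genes were higher), with a median of -0.14 beside 0.04 over all genes. In Spink3-/- against Spink3-/-XKI/+, 40 were higher (43% of all genes were), with a median of 0.13 beside -0.04. The last 2 comparisons share the Spink3-/-XKI/+ arrays and are not independent of each other, and their values rest largely on 1 of those arrays, as given further on.

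**Figure D1:**
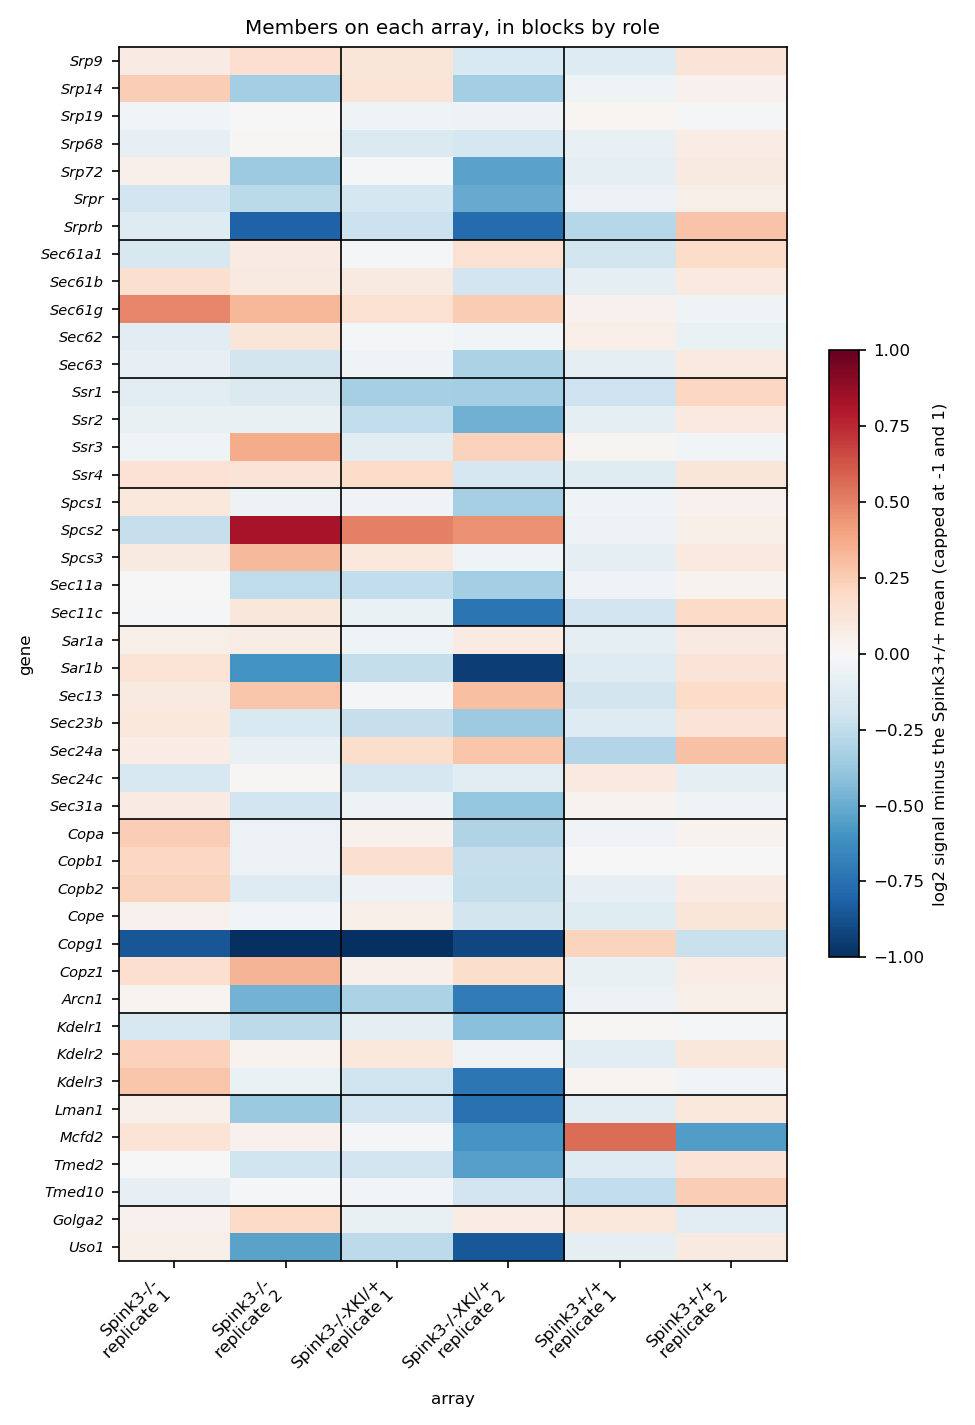
Level of each of the 44 tested members on each array, as log2 signal minus the mean of the Spink3+/+ arrays (colour scale capped at -1 and 1), with genes in blocks by role. The column of Spink3-/-XKI/+ replicate 2 is the bluest, with the lowest level of 27 members, and Copg1 is low on all 4 arrays of the mutant genotypes.

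The signal recognition particle and its receptor had 7 members, all tested. Their median difference was -0.05 in Spink3-/- and -0.16 in Spink3-/-XKI/+ against Spink3+/+, with 1 and 0 of the 7 higher. Srpr, the receptor subunit that docks the particle, stood at 1.91 and 1.84 in Spink3-/- and 1.93 and 1.60 in Spink3-/-XKI/+, against 2.04 and 2.16 in Spink3+/+. Both mutant genotypes lay below both wild-type arrays, by -0.23 and -0.34 (SE 0.19 each, limma adjusted p = 0.987 and 0.733). Srprb, the membrane anchor of that receptor, stood at -1.76 and -2.44 in Spink3-/- and -1.85 and -2.40 in Spink3-/-XKI/+, against -1.92 and -1.35 in Spink3+/+, so that all groups overlapped. Srp19 and Srp68, which build the domain that reads the signal sequence, were close to flat by their main probes. Srp19 stood at 3.42 and 3.46 in Spink3-/- and 3.41 and 3.40 in Spink3-/-XKI/+, against 3.47 and 3.43 in Spink3+/+. Its other probe, above background on all 6 arrays, was lower in Spink3-/-XKI/+ by -0.40, at 2.00 and 1.58 against 2.18 and 2.20 in Spink3+/+. Srp68 stood at 3.36 and 3.46 in Spink3-/- and 3.30 and 3.27 in Spink3-/-XKI/+, against 3.37 and 3.52 in Spink3+/+. Srp9 and Srp14, which together pause the ribosome, and Srp72, the partner of Srp68, overlapped in every comparison.

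The translocation channel held the member with the highest positive t in Spink3-/- against Spink3+/+. Sec61g, the small gamma subunit of the channel, stood at 7.52 and 7.36 in Spink3-/- and 7.19 and 7.29 in Spink3-/-XKI/+, against 7.08 and 6.99 in Spink3+/+. The arrays ranked by genotype without overlap, with Spink3-/- highest and Spink3+/+ lowest. The difference was 0.41 in Spink3-/- against Spink3+/+ (SE 0.17, limma adjusted p = 0.987), 0.20 in Spink3-/-XKI/+ against Spink3+/+ (limma adjusted p = 0.813) and 0.21 between the mutant genotypes (limma adjusted p = 0.845). The other channel subunits did not share this order. Sec61a1, which forms the pore, stood at 6.03 and 6.28 in Spink3-/- and 6.18 and 6.34 in Spink3-/-XKI/+, against 6.01 and 6.38 in Spink3+/+, with all groups overlapping. Sec61b, the beta subunit, overlapped in every comparison by its main probe on chromosome 4. Another of its probes is placed by the array's annotation on chromosome 15, where a near-identical copy could share the signal, so its values are uncertain. Sec62 and Sec63, which serve proteins that enter after translation, overlapped as well.

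**Figure D2:**
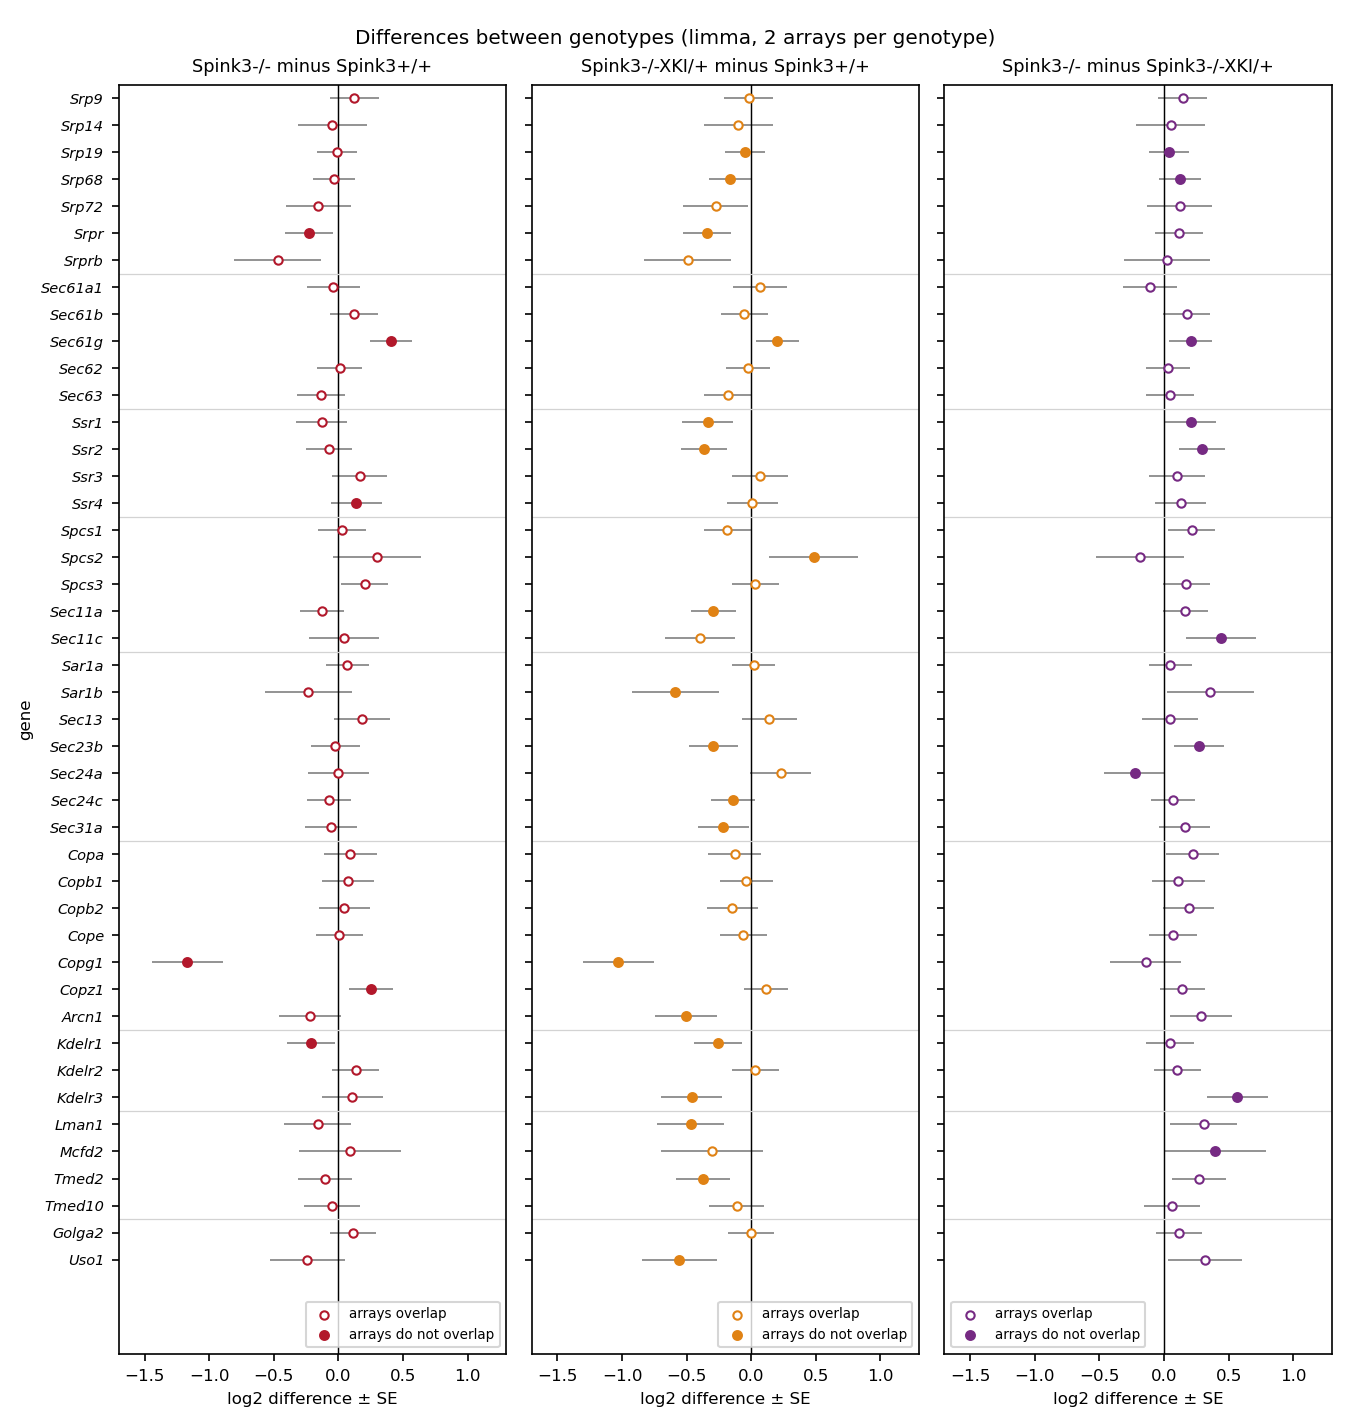
Difference of each tested member in the 3 comparisons (log2, point ± SE, limma on 6 arrays), in role order; filled points mark members whose arrays did not overlap between the 2 genotypes. Most points lie within 0.5 of 0, Copg1 lies at -1.17 and -1.03 against Spink3+/+, and in the right panel 40 of 44 points lie above 0.

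In the translocon-associated protein complex, Ssr1 and Ssr2 were lowest in Spink3-/-XKI/+. Ssr2, the beta subunit, stood at 3.41 and 3.41 in Spink3-/- and 3.24 and 3.01 in Spink3-/-XKI/+, against 3.39 and 3.58 in Spink3+/+. Ssr1, the alpha subunit, stood at 4.16 and 4.14 in Spink3-/- and 3.94 and 3.94 in Spink3-/-XKI/+, against 4.07 and 4.49 in Spink3+/+. For both genes the Spink3-/-XKI/+ arrays lay below the other 4, while Spink3-/- overlapped wild type. Ssr2 differed by -0.36 in Spink3-/-XKI/+ against Spink3+/+ (SE 0.18, limma adjusted p = 0.712) and by 0.29 in Spink3-/- against Spink3-/-XKI/+ (limma adjusted p = 0.773). Ssr4, the delta subunit, had both Spink3-/- arrays above both wild-type arrays, at 6.73 and 6.71 against 6.46 and 6.70, where the nearest arrays of the groups nearly touch. The probes of Ssr3, the gamma subunit, opposed each other, with the main probe at 0.16 and 0.07 and the other at -0.22 and -0.70 against Spink3+/+ in Spink3-/- and Spink3-/-XKI/+.

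Within signal peptidase, Spcs2 scattered most between arrays of 1 genotype. Spcs2, an accessory subunit, stood at 4.73 and 5.79 in Spink3-/- and 5.46 and 5.42 in Spink3-/-XKI/+, against 4.90 and 5.02 in Spink3+/+. The Spink3-/- arrays span all the others, and the Spink3-/-XKI/+ arrays lie above wild type by 0.48 (SE 0.34, limma adjusted p = 0.788). Its other probe differed by 0.02 in that comparison. Spcs3, a subunit needed for cleavage, stood at 2.61 and 2.85 in Spink3-/- and 2.63 and 2.48 in Spink3-/-XKI/+, against 2.43 and 2.62 in Spink3+/+, with overlap throughout. The catalytic subunits are the paralogs Sec11a and Sec11c. Sec11a stood at 2.83 and 2.58 in Spink3-/- and 2.58 and 2.49 in Spink3-/-XKI/+, against 2.79 and 2.87 in Spink3+/+. Sec11c stood at 2.47 and 2.60 in Spink3-/- and 2.42 and 1.76 in Spink3-/-XKI/+, against 2.30 and 2.68 in Spink3+/+. Sec11a thus had both Spink3-/-XKI/+ arrays below wild type, by -0.29 (limma adjusted p = 0.752). For Sec11c 1 array, Spink3-/-XKI/+ replicate 2, carried the difference of 0.44 between Spink3-/- and Spink3-/-XKI/+ (SE 0.27, limma adjusted p = 0.776).

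The COPII coat had 9 members, 7 of them tested. Sar1a and Sar1b are the GTPases that start the coat. Sar1a stood at 5.10 and 5.12 in Spink3-/- and 5.00 and 5.12 in Spink3-/-XKI/+, against 4.95 and 5.13 in Spink3+/+. Sar1b stood at -0.11 and -0.85 in Spink3-/- and -0.48 and -1.19 in Spink3-/-XKI/+, against -0.38 and -0.12 in Spink3+/+. Sar1a was flat, while Sar1b was lower in Spink3-/-XKI/+ by -0.59 (SE 0.34, limma adjusted p = 0.745), and the paired arrays of each mutant genotype lay farther apart than that.

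Of the inner coat, Sec23b stood at 2.23 and 1.97 in Spink3-/- and 1.90 and 1.76 in Spink3-/-XKI/+, against 1.99 and 2.26 in Spink3+/+. Both Spink3-/-XKI/+ arrays lay below the other 4, at -0.29 against Spink3+/+ (SE 0.19, limma adjusted p = 0.772) and 0.27 for Spink3-/- against Spink3-/-XKI/+ (limma adjusted p = 0.810). Its paralog Sec23a was not tested: the probe was above background on Spink3+/+ replicate 1 alone, at 0.08, and stood between -4.83 and -4.33 on the other 5 arrays. Sec24 proteins select the cargo. Sec24a stood at -1.64 and -1.79 in Spink3-/- and -1.54 and -1.43 in Spink3-/-XKI/+, against -2.01 and -1.42 in Spink3+/+, and was the 1 member whose Spink3-/- arrays both lay below both Spink3-/-XKI/+ arrays, by -0.23 (SE 0.23, limma adjusted p = 0.896; 21.3% of all genes did so). Sec24c stood at 5.03 and 5.19 in Spink3-/- and 5.02 and 5.07 in Spink3-/-XKI/+, against 5.28 and 5.09 in Spink3+/+. Sec24d, not tested, was above background on 1 array of each genotype. Sec13 and Sec31a form the outer cage; Sec13 overlapped throughout, and Sec31a stood at 3.34 and 3.06 in Spink3-/- and 3.21 and 2.87 in Spink3-/-XKI/+, against 3.29 and 3.22 in Spink3+/+. For Sec24c and Sec31a both Spink3-/-XKI/+ arrays lay below both wild-type arrays, with the nearest arrays of the groups almost touching.

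The COPI coat held the member farthest from wild type in both mutant genotypes. Copg1, the gamma subunit, stood at -2.39 and -3.01 in Spink3-/- and -2.68 and -2.44 in Spink3-/-XKI/+, against -1.31 and -1.75 in Spink3+/+. All 4 mutant arrays lay below both wild-type arrays, by -1.17 in Spink3-/- (SE 0.28, limma adjusted p = 0.748) and -1.03 for Spink3-/-XKI/+ (the same SE, limma adjusted p = 0.475). This probe lies at mm9 chr6:87862890-87862949 and was dim, and with normexp background correction the differences were -0.42 and -0.44. Another Copg1 probe, at mm9 chr6:87840454-87840513, gave no such difference, with -2.33 and -2.68 in Spink3-/- and -2.70 and -2.23 in Spink3-/-XKI/+, against -2.67 and -2.46 in Spink3+/+. It was above background on 2 arrays, so the probes disagree where neither is bright. Its paralog Copg2, which is no member, stood at 1.52 and 0.37 in Spink3-/- and 0.37 and 0.37 in Spink3-/-XKI/+, against 0.57 and 0.32 in Spink3+/+, and 1 Spink3-/- array stood apart.

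The remaining COPI subunits moved less. Copz1, the zeta subunit that pairs with gamma, stood at 4.83 and 5.01 in Spink3-/- and 4.72 and 4.85 in Spink3-/-XKI/+, against 4.59 and 4.75 in Spink3+/+. The Spink3-/- arrays lay above wild type by 0.25 (SE 0.17, limma adjusted p = 0.987), opposite in sign to its partner. Arcn1, the delta subunit, stood at 2.53 and 2.03 in Spink3-/- and 2.19 and 1.80 in Spink3-/-XKI/+, against 2.44 and 2.56 in Spink3+/+. It differed by -0.51 in Spink3-/-XKI/+ against Spink3+/+ (SE 0.24, limma adjusted p = 0.704), while its other probe differed by 0.04. The beta subunits Copb1 and Copb2 overlapped in every comparison. Copb1 stood at 1.39 and 1.13 in Spink3-/- and 1.34 and 0.95 in Spink3-/-XKI/+, against 1.17 and 1.19 in Spink3+/+. Copb2 stood at 3.37 and 3.02 in Spink3-/- and 3.099 and 2.91 in Spink3-/-XKI/+, against 3.07 and 3.23 in Spink3+/+. Copa and Cope, the alpha and epsilon subunits, overlapped too.

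KDEL receptors return ER chaperones from the Golgi, and Kdelr3 had the lowest p of all members between the mutant genotypes. Kdelr3 stood at 0.77 and 0.43 in Spink3-/- and 0.29 and -0.23 in Spink3-/-XKI/+, against 0.52 and 0.46 in Spink3+/+. The Spink3-/-XKI/+ arrays lay below the other 4, and Spink3-/- overlapped wild type. The difference was 0.57 in Spink3-/- against Spink3-/-XKI/+ (SE 0.24, limma adjusted p = 0.690) and -0.46 in Spink3-/-XKI/+ against Spink3+/+ (limma adjusted p = 0.722). Kdelr1 stood at 1.34 and 1.23 in Spink3-/- and 1.40 and 1.07 in Spink3-/-XKI/+, against 1.51 and 1.48 in Spink3+/+. All 4 mutant arrays were thus below wild type, by -0.21 and -0.26 (SE 0.18 each, limma adjusted p = 0.987 and 0.790). Kdelr2 stood at 2.26 and 2.07 in Spink3-/- and 2.13 and 1.99 in Spink3-/-XKI/+, against 1.92 and 2.14 in Spink3+/+, with overlap throughout, so the 3 receptors did not share an order.

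Cargo receptors had the lowest median of any role group in Spink3-/-XKI/+ against Spink3+/+, at -0.34, with 0 of 4 higher. That place rests on Spink3-/-XKI/+ replicate 2, at -0.57 from the wild-type mean; on replicate 1 they stood at -0.11, and the translocon-associated protein complex and the Golgi tethers both stood lower at -0.17. Lman1, a lectin that exports coagulation factors together with Mcfd2, stood at 3.34 and 2.92 in Spink3-/- and 3.099 and 2.55 in Spink3-/-XKI/+, against 3.19 and 3.39 in Spink3+/+. Tmed2, of the p24 family, stood at 5.24 and 5.04 in Spink3-/- and 5.05 and 4.69 in Spink3-/-XKI/+, against 5.11 and 5.37 in Spink3+/+. Both Spink3-/-XKI/+ arrays lay below wild type, by -0.47 for Lman1 and -0.37 for Tmed2 (limma adjusted p = 0.739 and 0.741). Mcfd2 stood at 4.23 and 4.14 in Spink3-/- and 4.08 and 3.51 in Spink3-/-XKI/+, against 4.66 and 3.54 in Spink3+/+, where the wild-type arrays lay at either end and all others between or just beside them. Tmed10, the partner of Tmed2, overlapped throughout. Among the Golgi tethers, Uso1, which captures incoming vesicles, stood at 1.54 and 0.95 in Spink3-/- and 1.22 and 0.63 in Spink3-/-XKI/+, against 1.39 and 1.57 in Spink3+/+. Its difference was -0.56 in Spink3-/-XKI/+ (SE 0.29, limma adjusted p = 0.726). Golga2, its Golgi docking partner, differed by 0.00015 there.

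Counted over the members, non-overlap against wild type was the more frequent in Spink3-/-XKI/+. In Spink3-/-, 3 members had both arrays above both Spink3+/+ arrays (Sec61g, Ssr4 and Copz1; 16.3% of all genes did so) and 3 had both below (Srpr, Copg1 and Kdelr1; 16.5%), which is under the background on either side. In Spink3-/-XKI/+, 2 lay above (Sec61g and Spcs2; 26% of all genes) and 17 below, 38.6% of the members beside 16.2% of all genes. They were Srp19, Srp68, Srpr, Ssr1, Ssr2, Sec11a, Sar1b, Sec23b, Sec24c, Sec31a, Copg1, Arcn1, Kdelr1, Kdelr3, Lman1, Tmed2 and Uso1. Other probes above background on all 6 arrays did not always agree. Those of Sec31a (0.06), Tmed2 (-0.05), Arcn1 (0.04), Kdelr1 (-0.24), Lman1 (-0.40) and Ssr1 (-0.38) overlapped wild type. Those of Srp19 (-0.40) and Sec11a (-0.21) lay below it. Of 17 members with several probes that passed the filter, 12 had the same sign on all of them in this comparison. In Spink3-/- against Spink3-/-XKI/+, 9 lay above, 20.5% of the members beside 13.2% of all genes: Srp19, Srp68, Sec61g, Ssr1, Ssr2, Sec11c, Sec23b, Kdelr3 and Mcfd2.

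Much of this rests on Spink3-/-XKI/+ replicate 2. It was the lowest of the 6 arrays for 27 of 44 members, or 61.4%, beside 16.9% of all genes, while Spink3+/+ replicate 2 was the highest for 19, or 43.2%, beside 14.3%. As a median over the members, the arrays stood from the wild-type mean at 0.05 and -0.06 in Spink3-/-, at -0.05 and -0.27 in Spink3-/-XKI/+ and at -0.09 and 0.09 in Spink3+/+. Spink3-/-XKI/+ replicate 1 thus lay within the wild-type range, and its replicate 2 outside it. Without replicate 2 the median in Spink3-/-XKI/+ against Spink3+/+ was -0.045, and in Spink3-/- against Spink3-/-XKI/+ it was 0.0325 with 29 of 45 members higher. Without replicate 1 they were -0.27 and 0.26. Single members moved likewise in Spink3-/-XKI/+ against Spink3+/+: without replicate 2, Kdelr3 stood at -0.20, Lman1 at -0.19, Sar1b at -0.24, Uso1 at -0.26 and Arcn1 at -0.31. Copg1, at -1.15, did not lie closer to wild type. In Spink3-/- against Spink3-/-XKI/+, Sec11c then stood at 0.11 and Kdelr3 at 0.31. With Spink3-/-XKI/+ replicate 2 left out, 18 members (40.9%) lay below both wild-type arrays, beside 29.3% of all genes; with replicate 1 left out, 31 (70.5%) did, beside 32.9%. For Spink3-/- above Spink3-/-XKI/+ the counts were 15 (34.1%, beside 27%) and 31 (70.5%, beside 27.4%). Leaving out Spink3+/+ replicate 1 or replicate 2 gave 31 and 20 members below wild type (31.2% and 27.4% of all genes), and leaving out Spink3-/- replicate 1 or replicate 2 gave 18 and 26 above Spink3-/-XKI/+ (32.6% and 28.6%).

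**Figure D3:**
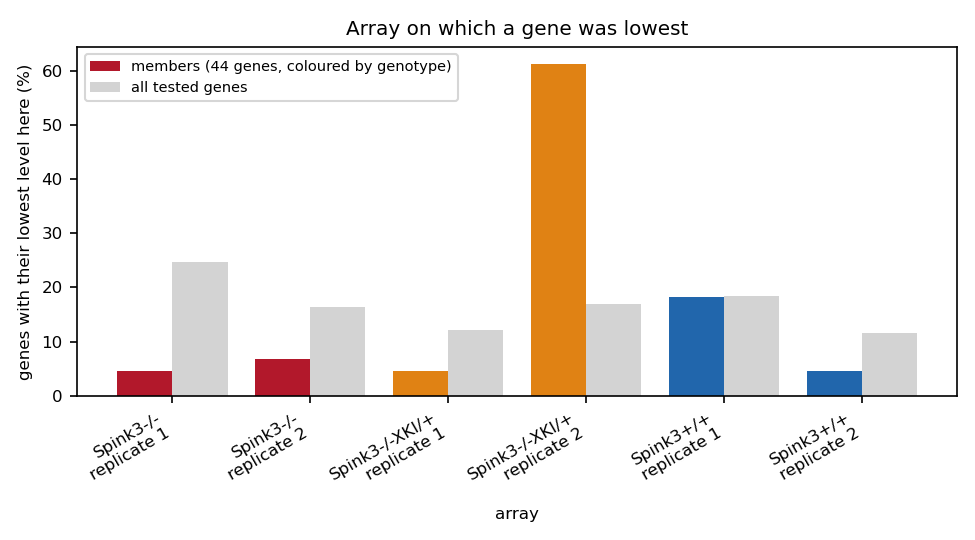
Share of genes (%) whose lowest level of the 6 arrays was on the array named, for the 44 tested members (coloured by genotype) and for all tested genes (grey). Spink3-/-XKI/+ replicate 2 held the lowest level of 61.4% of the members and of 16.9% of all genes.

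The slide rows give another view, since Spink3-/- lies in both. Within row 1, Spink3-/- replicate 1 minus the Spink3+/+ arrays had a median of 0.05 over the members, with 26 of 44 higher. Within row 2, Spink3-/- replicate 2 minus the Spink3-/-XKI/+ arrays had a median of 0.09, with 35 of 44 higher. With the row as a block the member medians were 0.05 in Spink3-/- and -0.06 in Spink3-/-XKI/+ against Spink3+/+, and 0.09 between the mutant genotypes. In that fit Srpr (-0.26), Ssr2 (-0.36), Sec61g (0.36) and Copg1 (-0.41) kept their sign in Spink3-/-XKI/+ against Spink3+/+, as did Kdelr3 (-0.12) and Tmed2 (-0.17). Arcn1 (-0.0077), Lman1 (-0.0441) and Sec23b (-0.0331) came close to 0, and Sar1b (0.15), Uso1 (0.0338) and Spcs2 (-0.58) changed sign. The row effect in this fit rests on 1 Spink3-/- array in row 1 against 1 in row 2. It cannot be told apart from the scatter between those arrays, so kept or changed signs do not separate row from genotype. Spink3-/-XKI/+ and Spink3+/+ share no row, so their difference and that of the rows cannot be told apart directly.

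**Figure D4:**
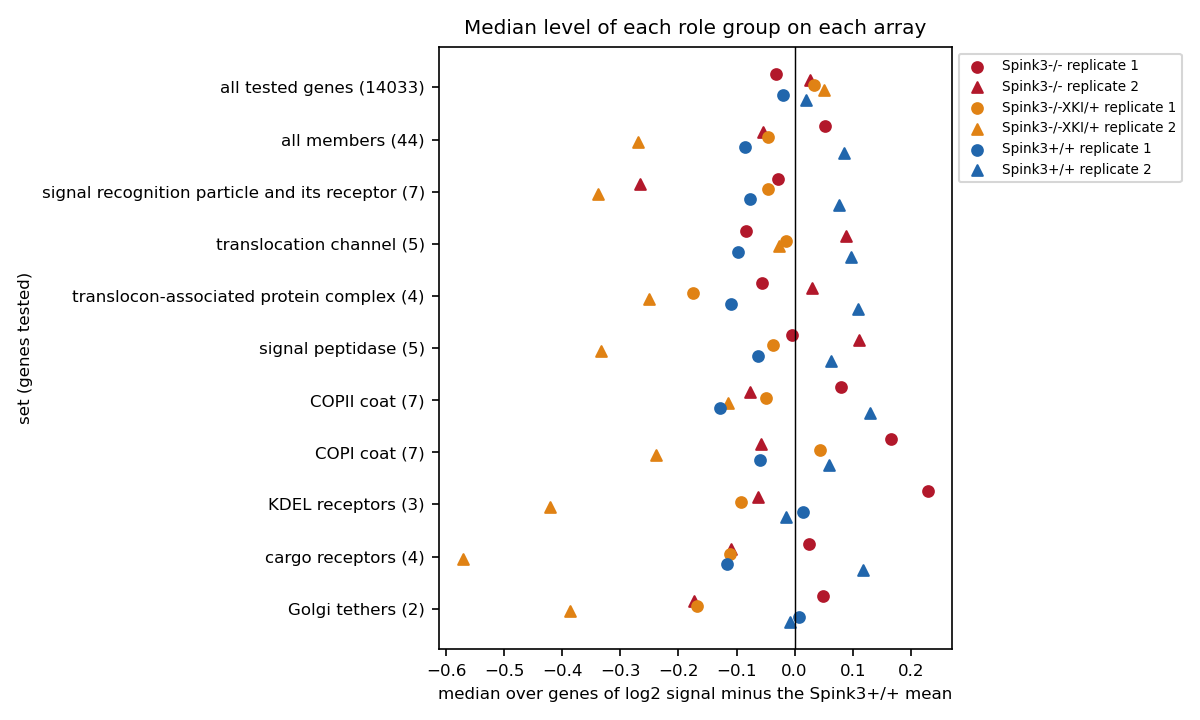
Median over the genes of each role group of log2 signal minus the Spink3+/+ mean, 1 point per array (circles replicate 1, triangles replicate 2). Spink3-/-XKI/+ replicate 2 is the lowest array for all members at -0.27 and lowest for cargo receptors at -0.57, while over all tested genes the arrays lie between -0.03 and 0.05.

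Markers of other cells moved beside these values. The 15 tested genes of liver plasma proteins were all higher in Spink3-/- than in Spink3+/+ (median 1.73), with array medians from the wild-type mean of 1.74 and 1.37 in Spink3-/- and -0.16 and 0.56 in Spink3-/-XKI/+, against -0.10 and 0.10 in Spink3+/+. The 4 tested striated muscle genes stood highest on Spink3-/-XKI/+ replicate 2, at array medians of 1.203 and 0.16 in Spink3-/- and 0.50 and 1.95 in Spink3-/-XKI/+, against -0.33 and 0.33 in Spink3+/+. Liver genes were highest on the Spink3-/- arrays, and muscle genes on the array that was lowest for the members. On those arrays 15 and 15 of the 15 liver genes were above background in Spink3-/- and 11 and 15 in Spink3-/-XKI/+, against 12 and 13 in Spink3+/+. Of the 4 muscle genes, 4 and 3 were above background in Spink3-/- and 4 and 4 in Spink3-/-XKI/+, against 2 and 2 in Spink3+/+. The muscle values are thus taken from a dim wild-type level, with mean levels of -2.10 and -1.44. Neutrophil markers had medians of -0.74 in Spink3-/- and -1.09 in Spink3-/-XKI/+ (8 tested), and erythroid markers -0.58 and -0.995 (5 tested). Macrophage markers stood at 0.21 and 0.41 (11 tested), fibroblast markers at -0.02 and 0.15 (10 tested), endothelial markers at -0.40 and -0.10 (9 tested) and islet markers at 0.03 and 0.12 (11 tested). The 23 digestive enzymes, the cargo that the members carry, had a median of -0.14 in Spink3-/- (7 higher) and 0.02 in Spink3-/-XKI/+ (12 higher) against Spink3+/+. On Spink3-/-XKI/+ replicate 2, where the members stood at -0.27, the enzymes stood at -0.03 from the wild-type mean. The brightest enzymes followed the scaling: Clps and Ctrb1 were lowest on Spink3-/- replicate 1, at 10.86 and 11.01. That array had the highest 75th percentile (155). They were highest on Spink3-/- replicate 2, at 11.42 and 11.51, which had the lowest (111). How far such bright probes can show a change was not tested, so the enzyme medians are a weak comparison. No gene of these lists passed, and their part in the members' values was not tested.

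Other genes of the same route, taken from lists and not for how they behaved, also gave 0 calls by limma. The oligosaccharyltransferase, which adds sugar chains at the channel, had 9 of 12 genes higher in Spink3-/- against Spink3+/+ (median 0.11), 2 of 12 in Spink3-/-XKI/+ against Spink3+/+ (median -0.09) and 12 of 12 in Spink3-/- against Spink3-/-XKI/+ (median 0.15). Ostc, one of its subunits, stood at 3.63 and 3.44 in Spink3-/- and 2.93 and 3.16 in Spink3-/-XKI/+, against 2.87 and 3.25 in Spink3+/+. Both Spink3-/- arrays lay above the other 4, by 0.48 against Spink3+/+ and 0.49 against Spink3-/-XKI/+ (SE 0.21, limma adjusted p = 0.987 and 0.690). The list of partners of the channel had medians of -0.01 in Spink3-/- and -0.04 in Spink3-/-XKI/+ against Spink3+/+ (28 tested). In that list Hspa5, the chaperone BiP that pulls chains into the ER, stood at 7.18 and 7.34 in Spink3-/- and 6.90 and 6.92 in Spink3-/-XKI/+, against 6.74 and 6.99 in Spink3+/+, a difference of 0.39 in Spink3-/- (SE 0.18, limma adjusted p = 0.987). Emc3 lay below wild type on all mutant arrays, by -0.57 in both genotypes (SE 0.29, limma adjusted p = 0.987 and 0.720). Emc1 was highest in Spink3-/-XKI/+, by 0.37 against Spink3+/+ (SE 0.17, limma adjusted p = 0.703).

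Sec16b, which marks the ER exit sites where COPII forms, had the lowest p among the further COPII genes. It stood at 0.31 and 0.37 in Spink3-/- and 0.37 and 0.33 in Spink3-/-XKI/+, against 0.89 and 0.77 in Spink3+/+. All 4 mutant arrays lay below wild type, by -0.49 and -0.48 (SE 0.16 each, limma adjusted p = 0.954 and 0.582). Further COPII genes had medians of 0.04 in Spink3-/- and -0.09 in Spink3-/-XKI/+ (9 tested), COPI and Arf genes 0.06 and -0.08 (12 tested), cargo receptors outside the members 0.06 and -0.03 (19 tested), and tethers, SNAREs and Rabs -0.02 and -0.03 (48 tested). In the last list Golga5, a Golgi tether, stood at 0.59 and 0.44 in Spink3-/- and 0.28 and 0.19 in Spink3-/-XKI/+, against 0.68 and 0.77 in Spink3+/+, with both Spink3-/-XKI/+ arrays lowest, by -0.49 (SE 0.16, limma adjusted p = 0.588). Golgb1 of the same list went the other way, with both Spink3-/-XKI/+ arrays above wild type by 0.40 (SE 0.19, limma adjusted p = 0.709). So did Tmed5, a cargo receptor outside the members, by 0.76 (SE 0.32, limma adjusted p = 0.658).

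The unfolded protein response, which senses misfolded chains in the ER, had 22 of 32 tested genes higher in Spink3-/- against Spink3+/+ (median 0.15) and 11 of 32 in Spink3-/-XKI/+ against Spink3+/+ (median -0.08). Trib3, a stress-induced pseudokinase, stood at 2.98 and 2.79 in Spink3-/- and 3.36 and 3.201 in Spink3-/-XKI/+, against 2.33 and 1.74 in Spink3+/+. Ddit3, the stress factor CHOP, stood at 0.03 and -0.18 in Spink3-/- and 0.62 and 0.36 in Spink3-/-XKI/+, against -0.23 and -0.82 in Spink3+/+. Both were highest in Spink3-/-XKI/+, where Trib3 differed by 1.25 (SE 0.24, limma adjusted p = 0.348) and Ddit3 by 1.02 (SE 0.25, limma adjusted p = 0.448). They were named for their low p and are not the extremes of the list. Against Spink3+/+ its genes ran from -0.71 to 1.83 in Spink3-/- and from -0.55 to 1.93 in Spink3-/-XKI/+, with the highest values in genes not named here. Herpud1, a factor of ER-associated degradation, was lowest in Spink3-/-XKI/+, at 5.18 and 5.06 in Spink3-/- and 4.39 and 4.57 in Spink3-/-XKI/+, against 5.19 and 4.84 in Spink3+/+. Atf6, a membrane-bound sensor, was low on all mutant arrays, at -1.74 and -1.78 in Spink3-/- and -1.75 and -1.71 in Spink3-/-XKI/+, against -1.11 and -1.25 in Spink3+/+ (-0.58 and -0.55, limma adjusted p = 0.873 and 0.525). Eif2ak3, the sensor kinase PERK that acts upstream of Ddit3, stood at 3.16 and 2.87 in Spink3-/- and 2.63 and 2.38 in Spink3-/-XKI/+, against 2.64 and 2.72 in Spink3+/+. Its difference in Spink3-/-XKI/+ against Spink3+/+ was -0.18 (SE 0.19, limma adjusted p = 0.855), with the nearest arrays almost touching. Any link to the level of Ddit3 was not tested. Dnajb9, a BiP cochaperone, differed by 0.36 in Spink3-/- and 0.26 in Spink3-/-XKI/+ against Spink3+/+ (limma adjusted p = 0.987 and 0.774).

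Promoter sequence was not used in choosing the members. RefSeq promoters (GRCm38.p6, 250 bases before to 50 after the start) were matched for 36 of the 46 members. The core of the XBP1 binding site, GACGTG on either strand, was found in 15 of the 36, or 41.7%, and not in the other 21, beside 7.15% of 27025 genes with a promoter and 10.3% of the 10559 among the tested genes. The longer unfolded protein response element core TGACGTGG, which contains those letters, was found in 5 (13.9%, beside 0.714% of all genes). The cAMP response element TGACGTCA was found in 1 (2.78%, beside 2.03%). The ER stress response element ERSE and its variant ERSE-II were found in 0 of 36 (0.137% and 0.0444% of all genes). The median GC content was 59% in the members' promoters, 60% in those of tested genes and 52.7% over all genes. A match is a run of letters and not a measured binding site.

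**Figure D5:**
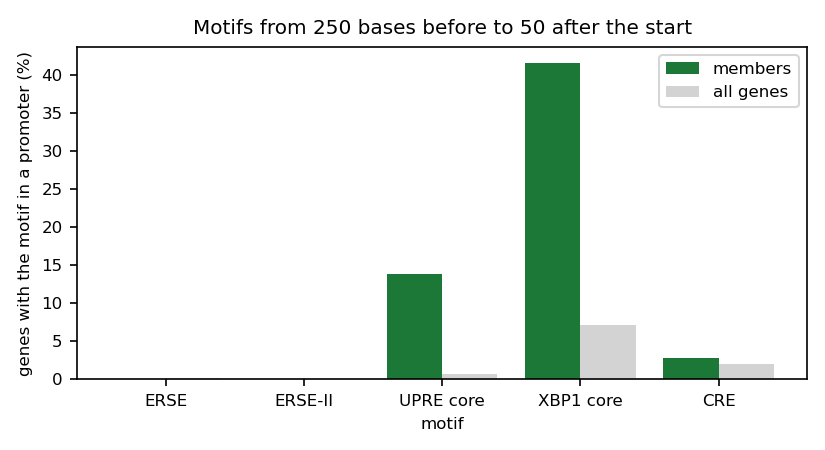
Share of genes (%) with each motif on either strand of a promoter, for the 36 members with a RefSeq promoter (green) and for 27025 genes (grey). The XBP1 core stands at 41.7% against 7.15% and the unfolded protein response element core at 13.9% against 0.714%, with ERSE and ERSE-II at 0 in the members.

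The core lay within 90 bases before the start in 10 members, 9 of them tested. Of these 9, Copb1, Copb2, Sec63 and Srp14 overlapped wild type in Spink3-/-XKI/+, and 5 had both Spink3-/-XKI/+ arrays below both Spink3+/+ arrays, as did 38.6% of all tested members and 16.2% of all genes. The sequences of these 5 are shown, picked after their values were seen, so their levels say nothing of the motif. Each sequence is the 90 bases before the start, 5′ to 3′ on the gene's strand, with GACGTG or its reverse complement CACGTC in capitals. Kdelr3 lies on the plus strand at chr15:79516318-79516407, Ssr1 on the minus strand at chr13:37994209-37994298, Srpr on the plus strand at chr9:35211113-35211202, Uso1 on the plus strand at chr5:92137848-92137937 and Sec24c on the plus strand at chr14:20674231-20674320, all in GRCm38.p6.
Kdelr3: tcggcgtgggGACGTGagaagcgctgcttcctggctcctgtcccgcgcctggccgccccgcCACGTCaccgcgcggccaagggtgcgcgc
Ssr1: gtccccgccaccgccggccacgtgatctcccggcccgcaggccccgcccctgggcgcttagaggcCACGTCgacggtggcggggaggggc
Srpr: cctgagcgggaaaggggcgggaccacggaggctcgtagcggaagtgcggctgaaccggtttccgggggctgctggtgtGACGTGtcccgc
Uso1: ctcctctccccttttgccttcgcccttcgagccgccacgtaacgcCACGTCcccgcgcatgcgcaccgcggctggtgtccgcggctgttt
Sec24c: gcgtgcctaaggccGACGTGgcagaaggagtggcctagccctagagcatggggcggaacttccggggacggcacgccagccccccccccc

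Kdelr3 carries the core on both strands, starting 80 and 29 bases before the start, and the one nearer the start lies in a full TGACGTGG on the opposite strand. Among members with a matched promoter, the differences were of like size with and without the core. The 13 tested members with it had medians of -0.05 in Spink3-/- and -0.15 in Spink3-/-XKI/+ against Spink3+/+, and 0.11 between the mutant genotypes. The 21 tested members with a promoter but no core had medians of 0.0089, -0.11 and 0.13 in the same comparisons. The 10 tested members without a matched promoter, whose motifs are unknown, had medians of -0.04, -0.26 and 0.22. These are descriptions without a test, and they rest on the same 6 arrays.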

How the data were processed

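Per the file headers, the deposited intensity of each spot is the processed signal of Agilent Feature Extraction 10.7.3.1, background-subtracted and detrended, with arrays not scaled to each other; the authors' series value table held the same intensity values. The array annotation names mouse build mm9. The flags for spots well above background are those of the deposited scanner files. Log2 of the intensity minus the 75th percentile of the array's non-control spots was used, without outlier spots and with spots of a probe averaged. Gene names were brought up to date with 49997 RefSeq mouse genes. A probe was kept if both arrays of any genotype were flagged.

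Genotypes, taken from the sample labels, were set against each other on all 6 arrays by limma's moderated two-sided test (version 3.58.1, R 4.3.3), with 3 residual degrees of freedom and Benjamini-Hochberg adjustment over 14033 genes; a gene was called at adjusted p under 0.05. With 2 arrays against 2, an exact permutation test would allow a p of no less than 0.333. The fit was tested on simulated data with planted changes of a doubling or halving and larger. That test did not cover smaller differences, such as most of those of the members. Members and lists were chosen with earlier results of these data known. Named members are, per comparison, the 4 highest and 4 lowest by limma t, plus paralog families; in each further list, genes were named from the 2 with the lowest p per comparison. Members without overlap between arrays and the sequences shown were chosen after their values were seen. In total 13 alternatives and the omission of each array were tried, and the alternative with the deposited series values repeated the main fit. Python 3.11.15 with pandas 2.3.3 and matplotlib 3.10.9 made the summaries and figures. The number of arrays limits the precision.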

Additional observations from a re-analysis of the deposited data

How the results depend on the processing

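Among the 13 alternatives, the deposited series values held the same intensities and so repeated the main fit. The replicate block and the intensity trend could change the spread but not a member's difference. Over all 13, 0 members were called in any comparison. With each array left out the count stayed at 0 to 1: without Spink3+/+ replicate 2 it was 1 against Spink3+/+ in both mutant genotypes, namely Sec23a. It then passed the filter only through the remaining Spink3+/+ array, the 1 array of all 6 on which it was above background, so no size is given; it was also tested with no filter and not called. A group left with 1 array took its spread from the rest of the arrays. Member medians ran from -0.089 to 0.0691 in Spink3-/- against Spink3+/+, from -0.2694 to -0.045 in Spink3-/-XKI/+ against Spink3+/+ and from 0.0325 to 0.2621 in Spink3-/- against Spink3-/-XKI/+ with an array left out. Non-overlapping members ran from 18 to 31 lower in Spink3-/-XKI/+ and from 15 to 31 higher in Spink3-/- against Spink3-/-XKI/+; this alternative was chosen after seeing the data, and with 1 array in a group non-overlap is easier to reach.

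The count of all genes called, 5 in Spink3-/- against Spink3+/+, was 1 with normexp, no filter, the strict filter, the replicate block and the slide row block, 2 with the mean of probes and an intensity trend, 11 with every probe and with 2 genotypes only, and 1 to 283 with an array left out. In Spink3-/-XKI/+ against Spink3+/+ the count of 1 was 2 with normexp, every probe and the trend, 3 with quantile normalization, 0 with the row block and 1 to 300 with an array left out. In Spink3-/- against Spink3-/-XKI/+ the count of 1 was 0 with normexp, no filter, the strict filter, every probe, 2 genotypes only, the trend and the replicate block, 4 with quantile normalization, 2 with spike-in scaling, 3 with the row block and 0 to 292 with an array left out. The causes were not tested.

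Signs were followed for the members named by limma t or without overlap in a comparison. In Spink3-/- against Spink3+/+, Spcs2 ran from -0.23 to 0.8281 with an array left out. Signs of the followed members turned there for Spcs2, at -0.23 with the row block and without Spink3-/- replicate 2. In Spink3-/-XKI/+ against Spink3+/+ they turned for Srp19 (0.0025, spike-in scaling), for Spcs2 (-0.58), Copz1 (-0.0646), Sar1b (0.15), Sec31a (0.0564) and Uso1 (0.0338) with the row block, and for Sec24a (-0.0672 without Spink3+/+ replicate 1; range -0.0672 to 0.5243 with an array left out). In Spink3-/- against Spink3-/-XKI/+ they turned for Copg1 (0.0199 with normexp; -0.4526 to 0.17 with an array left out, the highest without Spink3-/- replicate 2) and, with the row block and without Spink3-/- replicate 1, for Spcs2 (0.35; -0.7148 to 0.35 with an array left out) and Sec61a1 (0.0144). The other 167, 391 and 240 values of the members so followed kept sign and side of the threshold. Members outside that choice turned as well. In Spink3-/- against Spink3+/+, Sar1b (-0.23), Uso1 (-0.24) and Arcn1 (-0.22) stood at 0.14, 0.06 and 0.03 without Spink3-/- replicate 2. Srp14 (-0.05), Srp72 (-0.15) and Lman1 (-0.16) then stood at 0.25, 0.05 and 0.05. Sec23b (-0.02) and Sec31a (-0.06) stood at 0.11 and 0.08. Sec11c (0.05), Sec62 (0.0089) and Ssr3 (0.16) turned the other way, to -0.02, -0.10 and -0.04. The count of members higher with spike-in scaling, given above, also rests on turned signs. With the replicate block the member medians, -0.0059, -0.1437 and 0.1273, could not move, since each genotype has 1 array of each number. After scaling, deviations of same-numbered arrays correlated at -0.06, 0.03 and 0.20. Before scaling, the arrays numbered 1 were the brighter in every genotype. Their median intensities were 18.8 in Spink3+/+, 19.9 in Spink3-/- and 18.5 in Spink3-/-XKI/+, against 15.5, 15.2 and 15.8 for those numbered 2. The labels do not say what the replicate numbers stand for, so a technical difference between them is not excluded. Spike-in scaling moved all differences by 0.11, 0.05 and 0.06. Signal over background limits Copg1, Srprb, Sec24a, Sec23a and Sec24d, whose probes were dim.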
